A study of Salmo salar with 72 samples.

Results

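Among the 69389 genes counted in the distal intestine (DI) and spleen of Atlantic salmon, 3 genes of taurine synthesis were followed across diets and tissues: csad, gadl1 and gadl1-like. They were taken by their identifiers, and the names csad and gadl1-like are those of the study. csad is ENSSSAG00000065855 on chromosome 18, gadl1 is ENSSSAG00000057034 on chromosome 2, and gadl1-like is ENSSSAG00000009722 on chromosome 5. They had been picked out because their DI levels were higher in fish fed soybean meal diets than in fish fed fishmeal, so these differences are described here and not tested. Tests are given for the comparisons of diets that the choice did not use, namely those among the soybean diets in the DI and those in the spleen. The first of these draw on DI libraries that entered the choice, so they are not independent of it. The difference between the tissues holds the same DI levels and is described without a test.

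Atlantic salmon smolts were fed 1 of 6 diets for 42 days in seawater, and 6 fish of each diet, 2 from each of 3 tanks, were sampled for RNA from both organs, which gave 72 libraries of 36 fish. FM was a diet based on fishmeal, and the SBM diet held 30% soybean meal. The other 4 diets held the same share of soybean meal plus a yeast, which was either Cyberlindnera jadinii (CJ) or Wickerhamomyces anomalus (WA). In the paper's formulation these 4 also held less fishmeal, wheat gluten and potato starch than the SBM diet. ICJ and IWA contained the yeast inactivated by spray-drying, and ACJ and AWA contained the yeast after autolysis, a breakdown by its own enzymes, and then spray-drying. The 5 diets with soybean meal are called soybean diets below. In the same formulation they held less fishmeal, wheat gluten and potato starch than FM, and lacked the cellulose that FM held. They also held added lysine, methionine and monocalcium phosphate, which FM did not. In the comparisons with FM, effects of soybean meal and of these other differences in formulation cannot be told apart. Which tank a fish came from is not labelled, so each fish was taken as a replicate, and the p-values leave any likeness among tank mates out of account.

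Taurine is a sulfur-containing amino acid that is joined to bile acids and serves cells as an osmolyte. Animals make it from cysteine, which cysteine dioxygenase (cdo1) oxidises to cysteine sulfinic acid. Cysteine sulfinic acid decarboxylase (csad) then forms hypotaurine, which is oxidised to taurine. The related enzyme encoded by gadl1 is known from mammals to decarboxylate aspartate and cysteine sulfinic acid. Fishmeal is rich in taurine and plant meals hold very little.

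The libraries held 6976621 to 30857656 fragments on genes in the DI (median 18070953) and 15062129 to 35187924 in the spleen (median 21651522). The intestinal cadherin gene cdh17 was at 788 to 2593 CPM in 35 DI libraries and at 0.419 to 8.97 CPM in the spleen libraries, where CPM is the count scaled to the size of its library, with TMM factors within a tissue. The DI library of ICJ replicate 4 stood apart. Its cdh17 level was 311 CPM. The 2 genes found of the list for liver cells went opposite ways in it. There fetub was at 28.4 CPM against at most 0.13 CPM in the others, and apoa1 was at 0.417 CPM against 15.1 to 11910 CPM. The median Spearman correlation of this library with the other DI libraries was 0.772 against at least 0.885 for the rest. Differences between diets in the DI that rest on it are given with and without it. The tissue values were not fitted without it.

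The 3 genes shared the layout of their exons. In the genome build Ssal_v3.1, csad spans positions 10661764 to 10686199 on the forward strand, gadl1 spans 1926210 to 1952275 on the reverse strand, and gadl1-like spans 90829689 to 90854115 on the forward strand. Their exons together measure 7019 bases in csad, 4654 in gadl1 and 3970 in gadl1-like. Read in the direction of transcription, all of them have exons of 127, 91, 80, 55, 117, 65, 82 and 200 bases in this order. Between gadl1 and gadl1-like, 17 exon lengths recur in the same order, alternative ends included, while csad shares 8 with gadl1 and 9 with gadl1-like. Of the 69389 genes, 4 hold the full series of 8. The other one is LOC106605019 (ENSSSAG00000000768, chromosome 1, 54690459 to 54709619, forward strand), which was singled out after the search of exon lengths and has no name in the annotation used here. It shares further lengths with csad, 223 bases between the exons of 91 and 80, and 52, 90 and 174 bases after that of 200. An exon of 223 bases is found in neither gadl1 nor gadl1-like.

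**Figure D1:**
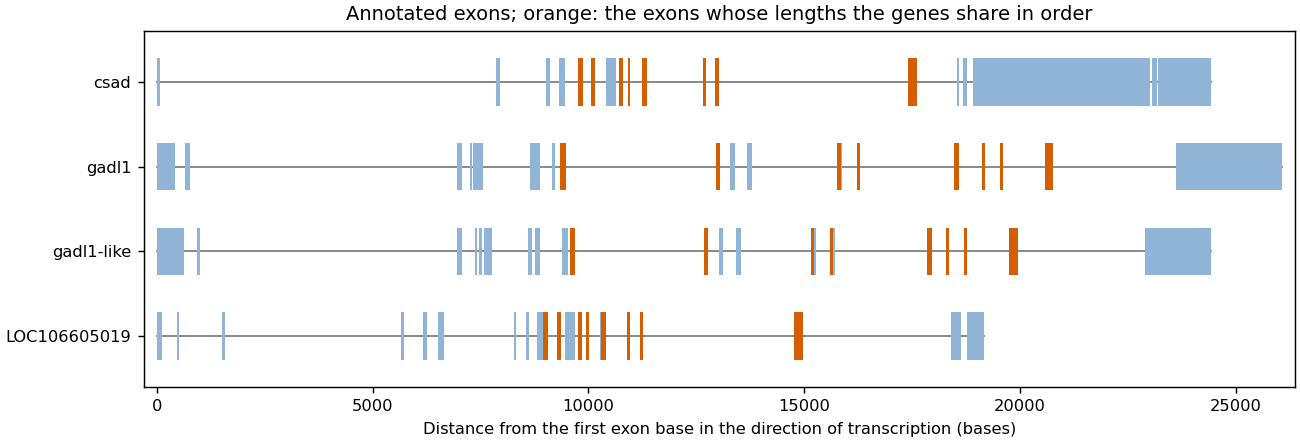
Annotated exons of csad, gadl1, gadl1-like and LOC106605019, drawn to scale along the distance in bases from the first exon base in the direction of transcription. Boxes are exons, and orange boxes mark the series of 8 exon lengths that the 4 genes share.

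Pairing with RefSeq genes by position gave gadl1 its symbol and tied gadl1-like to LOC106594092. The csad gene covers all of LOC106576775, which makes up 44.9% of its span. An unnamed gene, ENSSSAG00000067115 (chromosome 18, 10664904 to 10703601), lies across csad on the reverse strand. Fragments were counted by strand. The unnamed gene had group medians of 19.2 to 32.7 CPM in the DI and 9.49 to 10.7 CPM in the spleen, and its log2 fold change from FM in the DI was between 0.11 and 0.52 (adjusted p from 0.154 to 1 by edgeR).

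In the DI, csad was the most abundant of the 3 genes and was low in all FM fish. In the FM fish it ranged from 26.8 to 119.5 CPM, with a median of 45.5. In the SBM fish the lowest value was 352, the median 472 and the highest 854 CPM. All SBM fish lay above all FM fish. Fish fed ICJ ranged from 14.5 to 1238 CPM (median 738), and fish fed ACJ from 32.6 to 1326 CPM (median 712). In each of these groups 5 of 6 fish lay above every FM fish, and replicate 4 did not. ICJ replicate 4, at 14.5 CPM, is the library described above, and ACJ replicate 4, at 32.6 CPM, had 1212 CPM of cdh17. Whether the labels of these DI libraries are right could not be settled, and the ranges and overlap counts of ICJ and ACJ include them. Fish fed IWA ranged from 606 to 1008 CPM (median 822), and fish fed AWA from 484 to 1778 CPM (median 1037). All IWA and AWA fish lay above all FM fish.

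gadl1 was scarce in the FM fish, at 0.36 to 2.05 CPM with a median of 1.24. The SBM fish ranged from 6.53 to 41.4 CPM (median 10.1), the IWA fish from 5.91 to 61.1 CPM (median 21.6) and the AWA fish from 27.4 to 117.9 CPM (median 41.1). None of them overlapped with the FM fish. The ICJ fish ranged from 3.23 to 137.2 CPM (median 28.2), again all above the FM fish, and fell into 3 fish between 3.23 and 4.95 CPM and 3 fish between 51.4 and 137.2 CPM. The ACJ fish ranged from 0.88 to 70.3 CPM (median 21.1), and replicate 4, at 0.88 CPM, was within the range of the FM fish.

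gadl1-like was near the limit of detection in the FM fish, with 0 to 9 counts per library and 0 to 0.5 CPM (median 0.133). FM replicate 2 had 0 counts, which allows up to 0.195 CPM at its depth, by counting error alone. The SBM fish ranged from 0.575 to 3.97 CPM (median 0.979), the IWA fish from 0.643 to 17.0 CPM (median 2.73) and the AWA fish from 1.34 to 8.79 CPM (median 3.4), without overlap with FM. In the ICJ fish, from 0.348 to 16.7 CPM (median 4.23), 3 of 6 lay above all FM fish, and in the ACJ fish, from 0.055 to 13.4 CPM (median 1.62), 4 of 6 did.

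**Figure D2:**
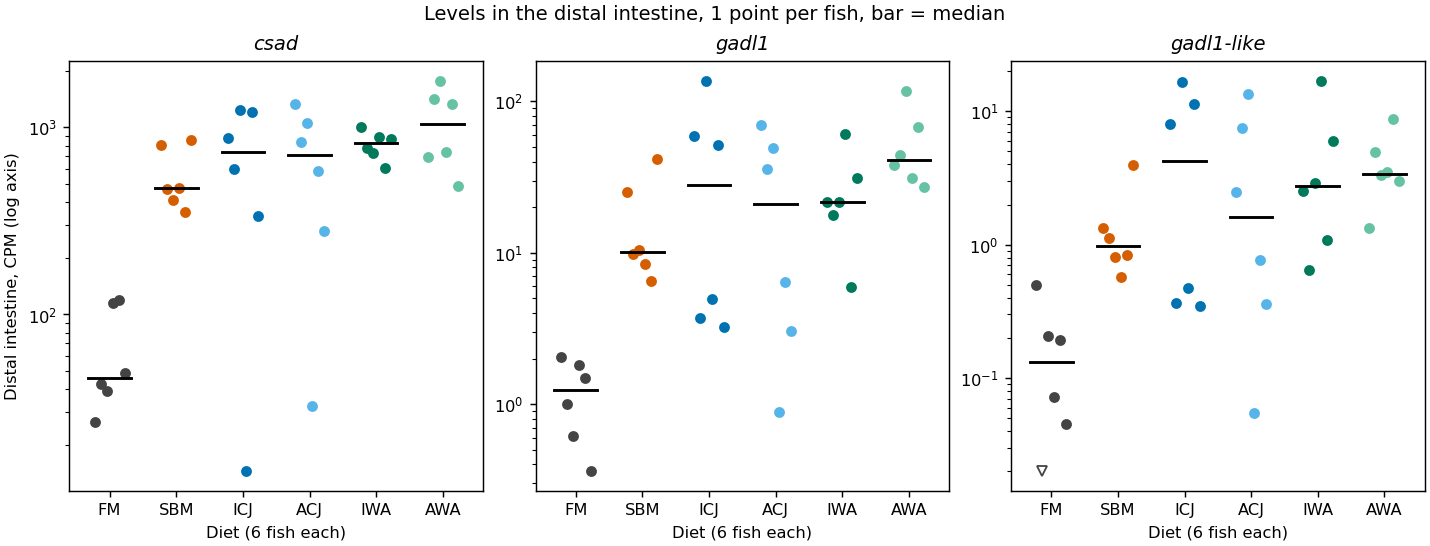
CPM in the DI on a log axis for csad, gadl1 and gadl1-like, with 1 point per fish, 6 fish per diet, and a bar at the median. FM fish have the lowest median of each gene (45.5, 1.24 and 0.133 CPM), ACJ replicate 4 lies within the FM range in all 3 genes, and the open triangle is the FM fish with 0 counts of gadl1-like.

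Counted by fish, all 3 genes were above the highest FM fish in 25 of the 30 fish on soybean diets, 6 of 6 on SBM, IWA and AWA, 3 of 6 on ICJ and 4 of 6 on ACJ. ACJ replicate 4 was above it in none. The groups did not overlap for 3 of 3 genes in SBM|FM, 1 of 3 in ICJ|FM, 0 of 3 in ACJ|FM, 3 of 3 in IWA|FM and 3 of 3 in AWA|FM. Over all 32157 genes tested in the DI, this held for 0.289% in SBM|FM, 0.202% in ICJ|FM, 0.0684% in ACJ|FM, 1.46% in IWA|FM and 3.78% in AWA|FM, which is given as background since the genes were chosen from these comparisons.

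The fitted differences from FM in the DI were large in all 5 comparisons. For csad the log2 fold change was 3.102 (standard error 0.65) in SBM|FM, 3.45 (0.66) in ICJ|FM, 3.39 (0.66) in ACJ|FM, 3.64 (0.66) in IWA|FM and 4.04 (0.68) in AWA|FM, or 8.59-fold to 16.5-fold. For gadl1 these values were 3.80 (0.92), 5.15 (0.97), 4.50 (0.95), 4.45 (0.95) and 5.48 (0.99), in the same order. For gadl1-like they were 3.06 (1.13), 5.14 (1.16), 4.54 (1.15), 4.86 (1.15) and 4.56 (1.15). The 5 comparisons share the FM fish. Without ICJ replicate 4 the values for ICJ|FM were 3.71 for csad, 5.39 for gadl1 and 5.39 for gadl1-like. Without ACJ replicate 4 those for ACJ|FM were 3.65, 4.75 and 4.79. The file headers of FM replicates 3, 4 and 5 give a different folder for the counting, and without these 3 csad had a value of 3.85 in SBM|FM and 4.34 in IWA|FM.

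Ordered by their DI medians, FM was lowest and SBM next for each of the 3 genes. ACJ, ICJ, IWA and AWA followed in this order for csad, ACJ, IWA, ICJ and AWA for gadl1, and ACJ, IWA, AWA and ICJ for gadl1-like. Neighbouring diets from SBM upwards overlapped in their ranges for every gene.

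Set per kilobase of exon, which allows genes to be compared, csad stood above gadl1 in every DI library. The median ratio of csad to gadl1 was 41.9 in the FM fish (8.64 to 89.6), 28.8 in SBM (13.7 to 37.4), 12.7 in ICJ (1.95 to 108.2), 20.1 in ACJ (12.5 to 61.3), 25.7 in IWA (9.65 to 68.0) and 12.6 in AWA (9.996 to 21.2). The lowest ratio, 1.95, belonged to ICJ replicate 4. gadl1 stood above gadl1-like by median ratios of 5.46 to 9.96 per kilobase in the 6 groups.

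Whether the 3 genes differed between the yeast diets and SBM was tested. The choice of genes did not use these contrasts, but it used the same DI libraries. The yeast diets also held less fishmeal, wheat gluten and potato starch than SBM. Effects of the yeast and of these shares cannot be told apart. The log2 differences from SBM fitted by edgeR, which share the SBM fish, were above 0 for each gene on each yeast diet, from 0.29 to 2.08. With limma and tanks inferred from fish numbers, the sign turned for csad in ICJ|SBM (-0.45) and for all 3 genes in ACJ|SBM. No difference passed the threshold of 0.05 on the adjusted p, which is the Benjamini-Hochberg value of edgeR's quasi-likelihood test over all genes tested. Called were 0 of 3 genes in each of ICJ|SBM, ACJ|SBM, IWA|SBM and AWA|SBM, against 0% of all genes. At an unadjusted p under 0.05 there was 1 of 3 in ICJ|SBM (background 4.84%), 0 of 3 in ACJ|SBM (1.01%), 0 of 3 in IWA|SBM (6.97%) and 1 of 3 in AWA|SBM (5.19%). DESeq2 called 0 of 3 in each, and 2 to 72 genes in all.

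The largest difference in ICJ|SBM was that of gadl1-like, 2.08 on the log2 scale (standard error 0.94, 95% interval 0.23 to 3.93, adjusted p = 0.987 by edgeR), with 3 of 6 ICJ fish above the highest SBM fish and 3 below the lowest. In AWA|SBM gadl1 differed by 1.68 (standard error 0.82, interval 0.08 to 3.28, adjusted p = 0.882 by edgeR), and 3 of 6 AWA fish lay above the highest SBM fish. csad differed from SBM by 0.35 (interval -0.83 to 1.52) in ICJ, 0.29 (-0.88 to 1.47) in ACJ, 0.54 (-0.64 to 1.71) in IWA and 0.94 (-0.24 to 2.12) in AWA. These intervals include 0 and, at their upper ends, differences of 1.47 to 2.12. Without ICJ replicate 4 the differences in ICJ|SBM were 0.605 for csad, 1.58 for gadl1 and 2.32 for gadl1-like, and without ACJ replicate 4 those in ACJ|SBM were 0.50, 0.91 and 1.69, with none called.

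Yeast that was autolysed before spray-drying was compared with yeast that was only inactivated, within each species. ACJ|ICJ gave log2 differences of -0.05 for csad (95% interval -1.23 to 1.12), -0.65 for gadl1 (-2.22 to 0.91) and -0.60 for gadl1-like (-2.37 to 1.16). AWA|IWA gave 0.40 for csad (-0.77 to 1.58), 1.03 for gadl1 (-0.54 to 2.60) and -0.29 for gadl1-like (-2.05 to 1.46). Between the species, with the mean of IWA and AWA set against that of ICJ and ACJ, the differences were 0.42 for csad (-0.41 to 1.25), 0.14 for gadl1 (-0.96 to 1.24) and -0.13 for gadl1-like (-1.37 to 1.11). Called were 0 of 3 genes in each of these comparisons, against 0% of all genes by edgeR, and 0 of 3 by DESeq2. At an unadjusted p under 0.05 there were 0 of 3, against 5.11% of all genes in ACJ|ICJ, 2.91% in AWA|IWA and 23.8% in WA|CJ. Without ICJ replicate 4 the differences in ACJ|ICJ were -0.31 for csad, -0.89 for gadl1 and -0.85 for gadl1-like, and in WA|CJ 0.29, 0.025 and -0.25. Without ACJ replicate 4 they were 0.16, -0.45 and -0.39 in ACJ|ICJ, and 0.28, -0.003 and -0.27 in WA|CJ, so the signs of csad in ACJ|ICJ and of gadl1 in WA|CJ turned. None was called.

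**Figure D3:**
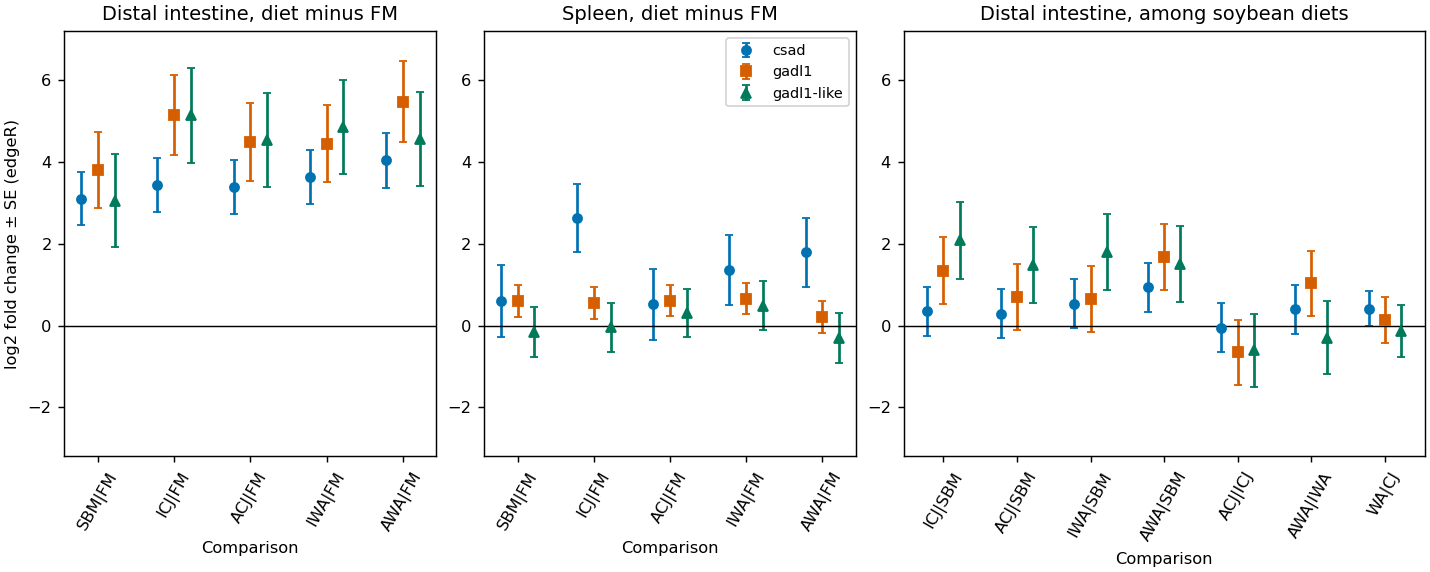
Log2 fold changes with standard errors from edgeR for the diets against FM in the DI and in the spleen, and for the comparisons among soybean diets in the DI, where WA|CJ sets the mean of IWA and AWA against that of ICJ and ACJ. In the DI all values against FM lie between 3.06 and 5.48, and among soybean diets between -0.65 and 2.08.

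In the spleen the 3 genes were at low levels on every diet. csad had 1 to 104 counts per library, gadl1 24 to 163 and gadl1-like 0 to 26. csad was between 0.048 and 0.437 CPM in the FM fish (median 0.172) and between 0.273 and 0.384 CPM in the SBM fish (median 0.306), which overlapped. In ICJ it ranged from 0.257 to 5.87 CPM (median 0.482), in ACJ from 0.089 to 0.515 CPM (median 0.327), in IWA from 0.189 to 1.79 CPM (median 0.28) and in AWA from 0.06 to 3.43 CPM (median 0.232). The high ends belonged to single fish, ICJ replicate 6, IWA replicate 5 and AWA replicate 6, and the other 33 spleen libraries had at most 0.59 CPM.

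gadl1 in the spleen ranged from 1.28 to 4.41 CPM in the FM fish (median 2.34) and from 1.35 to 7.67 CPM over the fish on soybean diets, with medians of 3.09 to 4.27 CPM. gadl1-like ranged from 0.102 to 0.906 CPM in the FM fish (median 0.439), and had medians of 0.309 to 0.798 CPM on the soybean diets. The groups overlapped in every case.

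Called in the spleen were 0 of 3 genes in each of the 5 comparisons with FM, against 0% of all 32144 genes tested by edgeR. DESeq2 gave no p for csad and called neither gadl1 nor gadl1-like. At an unadjusted p under 0.05 there was 1 of 3 in ICJ|FM (background 6.51%) and 1 of 3 in AWA|FM (background 9.2%), csad in both, and 0 of 3 in SBM|FM (7.95%), ACJ|FM (8.13%) and IWA|FM (5.95%). Its log2 fold change was 2.64 (standard error 0.83, adjusted p = 0.759 by edgeR) in ICJ|FM, with 4 of 6 fish above all FM fish, and 1.80 (0.84, adjusted p = 0.518) in AWA|FM, with 1 of 6. Both depended strongly on 1 fish. Without ICJ replicate 6, which had 104 counts of csad against 6 to 15 in the other ICJ fish, the first value was 1.07. Without AWA replicate 6 the second was -0.056. The spleen library of ICJ replicate 6 also had 67.3 CPM of apoa1, from the list for liver cells, and 10.4 CPM of slc15a1, from that for absorptive gut cells. The other spleen libraries had at most 0.661 and 1.8 CPM of them. The other gene found of the list for liver cells, fetub, was at 0.056 CPM in ICJ replicate 6, and cdh17 was at 8.97 CPM there. AWA replicate 6 had 6.97 CPM of cdh17 and IWA replicate 5 had 3.63. AWA replicates 3 and 5 had 7.92 and 6.57 CPM of cdh17 and 0.06 and 0.068 CPM of csad. In these 2 libraries the exocrine pancreas gene cpb1 was at 5213 and 3832 CPM. It was at 25.3 CPM in ICJ replicate 6, 9.39 in AWA replicate 6 and 1134 in IWA replicate 5. The goblet cell gene agr2 was at 0.564, 1.23 and 0.921 CPM in these 3 libraries. In AWA replicates 3 and 5 it was at 0.12 and 0.677 CPM. FM replicate 1 and IWA replicate 1 had 0.831 and 0.817 CPM of agr2 and 0.076 and 0.531 CPM of csad. IWA replicate 4, ICJ replicate 2 and FM replicate 2 had 6.74, 5.46 and 4.06 CPM of cdh17. Their csad levels were 0.202, 0.47 and 0.241 CPM. The part of intestinal RNA in the csad values of the spleen was not tested further.

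For gadl1 the log2 fold changes in the spleen were 0.21 to 0.66 over the 5 comparisons, with standard errors of 0.39. Their 95% intervals all included 0 and reached at most 1.42. For gadl1-like the fold changes were -0.31 to 0.49, with standard errors of 0.59 to 0.61, and the intervals reached at most 1.65. The difference between the DI and the spleen in these fold changes was not tested.

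The tissues were compared within each of the 36 fish on a common scale. The DI levels on the soybean diets, by which the genes were chosen, make up most of these values, so they are a description with no test. csad was higher in the DI in 36 of 36 fish, with medians of 721 CPM in the DI and 0.274 CPM in the spleen and a log2 difference of 10.64 (standard error 0.46, by edgeR with the fish as a block). gadl1 was higher in the DI in 27 of 36 fish (log2 difference 2.38, standard error 0.42), and gadl1-like in 28 of 36 (2.27, 0.41). As background, from which nothing is read here, 42.5% of the 31180 genes tested were called higher in the DI, and 15.6% were higher in the DI in all 36 fish.

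Diet by diet, the same values were as follows, and a dependence of the tissue difference on the diet was not tested. In the FM fish gadl1 was lower in the DI than in the spleen in 6 of 6 fish (medians 1.41 and 2.13 CPM on the common scale, log2 difference -0.82, standard error 0.26). In the SBM fish it was higher in the DI in 6 of 6 (2.14, 0.46), in ICJ in 5 of 6 (2.82, 1.14), in ACJ in 4 of 6 (2.39, 1.04), in IWA in 6 of 6 (2.84, 0.53) and in AWA in 6 of 6 (4.33, 0.29). gadl1-like was higher in the DI in 1 of 6 FM fish, 6 of 6 on SBM, 4 of 6 on ICJ, 5 of 6 on ACJ, 6 of 6 on IWA and 6 of 6 on AWA. csad was higher in the DI on every diet, with log2 differences from 8.51 in the FM fish to 11.53 in AWA.

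**Figure D4:**
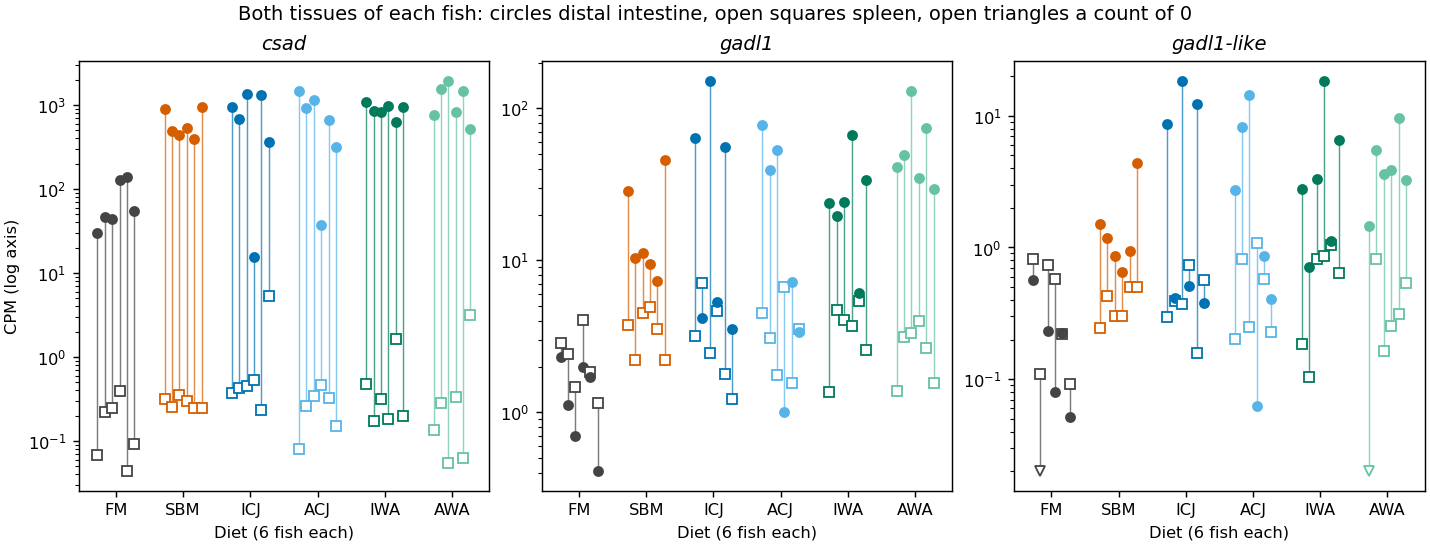
CPM on a log axis and on a scale common to both tissues, with a line joining the DI (filled circles) and the spleen (open squares) of each fish, 6 fish per diet. The DI lies above the spleen for csad in 36 of 36 fish, and for gadl1 in 0 of 6 FM fish and in 6 of 6 AWA fish. Open triangles mark a count of 0.

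Within the DI, the 3 genes rose and fell together from fish to fish. Over the 36 libraries the Spearman correlation was 0.92 between csad and gadl1, 0.86 between csad and gadl1-like, and 0.926 between gadl1 and gadl1-like. Of the 32156 other genes tested, 0 were more like gadl1 than gadl1-like was, 1 was more like csad than gadl1 was, and 7 were more like csad than gadl1-like was. These ranks include the diet differences by which the genes were chosen. The values were 0.93, 0.864 and 0.92 without ICJ replicate 4, and 0.753, 0.604 and 0.852 after subtraction of the diet means. In the 36 spleen libraries the same correlations were 0.145, 0.384 and 0.26, at the low counts given above. The points of a tissue share diets, tanks and libraries, and no p is given.

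**Figure D5:**
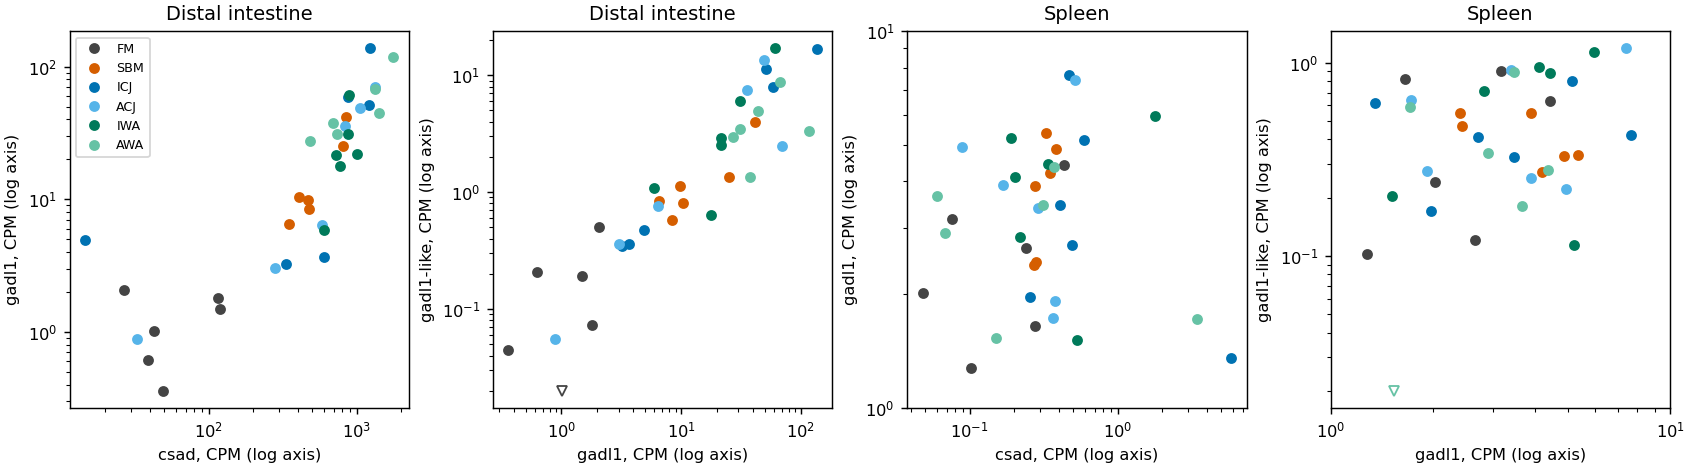
Each fish plotted by its CPM of 2 genes on log axes, csad with gadl1 and gadl1 with gadl1-like, in the DI and in the spleen, coloured by diet. In the DI the points lie along a rising line (Spearman correlations 0.92 and 0.926 over 36 libraries), and in the spleen they scatter (0.145 and 0.26). Open triangles mark a count of 0 of gadl1-like.

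The 6738 genes with a symbol and at least 1 CPM on average in the DI were searched for the pattern most like each of the 3 genes. For csad the closest was the taurine transporter gene slc6a6 (ENSSSAG00000068263), with a Spearman correlation of 0.921 over 36 libraries, 0.914 without ICJ replicate 4, 0.746 after subtraction of the diet means and 0.079 in the spleen. The next were sqstm, which encodes the autophagy receptor sequestosome (0.888), and plcxd1.1 (0.869). For gadl1 they were slc6a6 (0.905), s38a2, named after an amino acid transporter (0.887), and plcxd1.1 (0.873). For gadl1-like they were s38a2 (0.886), the second taurine transporter gene slc6a6b (0.862) and plcxd1.1 (0.855). Over the residuals from the diet means these values lay between 0.663 and 0.794, and in the spleen between -0.048 and 0.406.

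Over the 36 DI libraries, the 2 genes found of the list for absorptive gut cells did not move in 1 direction with the 3 genes. The intestinal cadherin gene cdh17 ranged from 788 to 2040 CPM in the FM fish and from 1961 to 2479 CPM in the AWA fish, and its Spearman correlation over the 36 DI libraries was 0.728 with csad, 0.672 with gadl1 and 0.662 with gadl1-like. After subtraction of the diet means it was 0.732, 0.605 and 0.598. For slc15a1, a peptide transporter gene, the correlations over the 36 libraries had the opposite sign, -0.305, -0.491 and -0.49. After subtraction of the diet means they were weaker, 0.016 with csad, -0.261 with gadl1 and -0.322 with gadl1-like. The median of slc15a1 was 16.2 CPM in the FM fish (0.135 to 312.8) and 0.077 CPM in the AWA fish (0 to 22.4). It was at 0 CPM in ACJ replicate 3, with 2444 CPM of cdh17, and at 312.8 CPM in FM replicate 5, with 2040 CPM of cdh17. The sign of slc15a1 is therefore not set against that of cdh17. Of the list of markers of absorptive gut cells, 2 of 8 symbols were found (cdh17 and slc15a1), and their summed level, most of it cdh17, was 788 to 2353 CPM in FM, 1082 to 2412 in SBM, 311 to 2380 in ICJ, 1219 to 2444 in ACJ, 1373 to 2594 in IWA and 1961 to 2479 in AWA. The 13 genes of posterior gut position summed to 99.8 to 244 CPM in FM (median 135.3) and to 159 to 208 CPM in AWA (181.7). Their sums had medians of 162.5 CPM in SBM, 150.2 in ICJ, 160.1 in ACJ and 167.4 in IWA. Of the 13 genes, 11 were tested, and 0 were called in any of the comparisons with FM in the DI. There edgeR called 0.0187% of all genes in SBM|FM, 0.0466% in ICJ|FM, 0.00311% in ACJ|FM, 0.308% in IWA|FM and 3.41% in AWA|FM. At such shares, 0 calls among 11 genes cannot show whether gut position differed between the diets. The median log2 fold change of these 11 from FM was -2.39 in SBM, -0.15 in ICJ, -2.92 in ACJ, 0.10 in IWA and 0.04 in AWA. It weighs scarce and abundant genes alike, and the median sums in SBM and ACJ were not below that of FM. The gene apoa1 ranged from 154 to 11910 CPM in the FM fish and from 38.9 to 3853 CPM in the AWA fish. More cells of a type and more RNA per cell cannot be told apart in these bulk samples, and the part of these markers in the differences was not tested.

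LOC106605019, which shares the exon series and further exon lengths with csad, behaved otherwise. Its DI medians were 9.36 CPM in the FM fish and 4.99 to 7.48 CPM on the soybean diets, and its spleen medians 26.5 CPM in FM and 29.0 to 32.9 CPM on the soybean diets. In the DI its log2 fold changes from FM were between -0.63 and 0.32, with standard errors of 0.51 (adjusted p from 0.438 to 1 by edgeR), and in the spleen between 0.11 and 0.30 (adjusted p from 0.433 to 0.836).

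Of the other genes of the taurine pathway, 6 genes of 5 symbols were found, and 5 of them were tested in the DI. cdo1, which makes the substrate of csad, had DI log2 fold changes from FM of 0.69 in SBM (adjusted p = 0.482 by edgeR), 0.29 in ICJ, 0.45 in ACJ, 0.32 in IWA and 0.13 in AWA, with standard errors of 0.29, and was called in none. fmo5, a gene of the family of flavin-containing monooxygenases, had values of -0.55 to -0.04 and was named after its values were seen. Whether its enzyme acts on hypotaurine was not tested. The transporters slc6a6 and slc6a6b were the genes of the list that passed. The list was drawn up with earlier results of these data known, and the paper names slc6a6 as up-regulated in the DI on SBM. Their calls are therefore a description and no test of the list. In AWA|FM 2 of 5 were higher (background 2.13%), slc6a6 by 1.88 (standard error 0.35) and slc6a6b by 1.68 (0.29). In IWA|FM 1 of 5 was higher (background 0.159%), slc6a6b by 1.27 (0.29). With each of the 36 DI libraries left out in turn, the calls in AWA|FM held in 36 of 36 fits, and that in IWA|FM in 11 of 36. The median of the list was 0.13 to 0.69 over the 5 comparisons, and that of all genes -0.08 to 0.00. In each comparison the list median equalled the value of cdo1 given above, and 3 of the 5 genes tested lay above 0. It is therefore not read as a rise of the whole list.

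The lists on the supply of cysteine and methionine (8 genes), bile acid handling (7 genes, 5 tested), other pyridoxal phosphate-dependent decarboxylases and vitamin B6 (6 genes), and beta-alanine and carnosine (4 genes) held 0 called genes in the 5 comparisons with FM in the DI, where edgeR called 0.0187% of all genes in SBM|FM, 0.0466% in ICJ|FM, 0.00311% in ACJ|FM, 0.308% in IWA|FM and 3.41% in AWA|FM. Their median log2 fold changes were 0.03 to 0.20, -0.23 to 0.18, -0.01 to 0.20 and -1.23 to -0.33. In the spleen these 4 lists and that of taurine held 0 called genes too.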

How the data were processed

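The values are raw counts of fragments per gene that the authors deposited for each of 72 libraries. Per the labels and the methods of the study, stranded mRNA libraries were trimmed with Trim Galore and aligned with STAR to the Atlantic salmon genome Ssal_v3.1, and read pairs that mapped to 1 place were counted by strand with featureCounts (version 1.4.6). The headers of the counts give a different featureCounts version. Multi-mapping reads were left out, which can lower the counts of near-identical genes.

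From these counts, TMM-scaled counts relative to library size (CPM) were computed within each tissue, and for the tissue comparison over both. Genes of low counts were filtered with filterByExpr, and 1 fit per tissue (edgeR 4.0.16, R 4.3.3, quasi-likelihood, robust) held the 36 libraries, with Benjamini-Hochberg adjustment over all genes tested and a threshold of 0.05. The tissue difference was fitted over 72 libraries with the fish as a block. Alternatives used DESeq2 1.42.0 and limma 3.58.1, other scaling, filters and samples. The statistics were tested on simulated data, in which only well-counted genes were changed and tank mates were not alike. Counts as low as those of gadl1-like in the FM fish or of csad in the spleen are not covered by it. Intervals are the estimate with 1.96 standard errors on either side. Low counts limit the precision of gadl1-like in both tissues and of csad in the spleen.

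The members and the gene lists were chosen with earlier results of these data known. Named besides the 3 genes were annotated copies of them and of cdo1, list genes that passed the threshold, and the 3 genes most alike in the DI to each. Genes were paired with RefSeq by position, for 34983 genes, of which 8967 have a symbol.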

Additional observations from a re-analysis of the deposited data

Results flagged for a closer look

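In 5 of 36 groups of 6 fish, the fish with the highest value was farther from the next one than the limit of Dixon's test allows. For normally distributed values chance gives this in about 1 group in 20. That rate need not hold for these CPM, which were taken without logarithms, so the number of groups is not set against it. In the DI these were SBM replicate 6 with 3.97 CPM of gadl1-like and IWA replicate 4 with 17.0 CPM of gadl1-like. In the spleen they were ICJ replicate 6 with 5.87 CPM of csad, IWA replicate 5 with 1.79 CPM and AWA replicate 6 with 3.43 CPM.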

How the results depend on the processing

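No difference of the 3 genes among soybean diets or in the spleen became called under any alternative run, where DESeq2 gave no p for csad in the spleen. Without the 3 FM libraries of the other folder, csad was at 3.85 in SBM|FM and 4.34 in IWA|FM. With limma and the tank as a random block, where tanks were inferred from fish numbers, signs turned in ICJ|SBM for csad (-0.45), in ACJ|SBM for csad (-0.28), gadl1 (-0.35) and gadl1-like (-0.011), in ACJ|ICJ for csad (0.18), in AWA|IWA (0.0665) and WA|CJ (1.06) for gadl1-like, and in the spleen for gadl1-like in SBM|FM (0.25) and ICJ|FM (0.20). The cause was not tested. The replicate block turned WA|CJ of gadl1-like to 0.20 and changed no other sign of the 3 genes in the comparisons of diets. Among the soybean diets and in the spleen it changed no call of them. Replicate numbers did not pair the fish (median correlation of deviations -0.000569 in the DI and 0.036 in the spleen over 90 pairs).

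Leaving out single libraries turned signs in these ranges. In the DI they were -0.054 to 0.50 (csad ACJ|SBM), -0.38 to 0.18 (csad ACJ|ICJ), -1.22 to 0.17 (gadl1 ACJ|ICJ), -0.67 to 0.62 (gadl1-like AWA|IWA), -0.084 to 0.55 (gadl1 WA|CJ) and -0.60 to 0.31 (gadl1-like WA|CJ). In the spleen they were -0.37 to 0.10 (gadl1-like SBM|FM), -0.26 to 0.22 (gadl1-like ICJ|FM), -0.022 to 0.56 (gadl1-like ACJ|FM) and -0.056 to 2.21 (csad AWA|FM). In WA|CJ, 0 genes were called over all genes, but 4402 without ICJ replicate 1 and 2771 by DESeq2, with 0 of the 3 genes among them. The tissue difference of gadl1 was -0.82 in the FM fish alone, and in fits of fewer fish the ICJ fish alone gave 2.82 for gadl1 and 2.87 for gadl1-like, and the ACJ fish alone 2.39 and 2.28, with larger standard errors. gadl1-like had too few counts for a value in the FM fish alone. Leaving out each fish in turn was not run for the tissue difference.

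Calls over all genes moved with the setting. In AWA|FM 1097 genes were called, 2661 by DESeq2, 566 with the replicate block and 6 without the 3 FM libraries of the other folder. In IWA|FM these counts were 99, 1027, 5 and 5.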
